A study of Mus musculus with 2 samples.

Results

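Gal, Cck and Npy, the genes of the neuropeptides galanin, cholecystokinin and neuropeptide Y, were followed through single-cell RNA of adult mouse cochlear explants. They are 3 of the 31053 genes in the deposited tables, and each symbol matched 1 row in both libraries. The genes were selected on their measured UMI levels in earlier results of these same data, so their levels are a description and carry no test. Neuropeptides are made as precursor proteins, cut by convertases in the secretory pathway and stored in dense granules. Galanin and neuropeptide Y are known from neurons and endocrine cells and are often raised in neurons after nerve injury, while cholecystokinin is known both as a gut hormone and as a brain peptide. Galanin acts on the receptors Galr1 to Galr3, cholecystokinin on Cckar and Cckbr, and neuropeptide Y on a family of Npy receptors, all coupled to G proteins.

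Both groups were whole cochlear explants from C57BL/6J mice aged 4 to 6 weeks. The cocktail group was held for 4 days in valproate (VPA, an inhibitor of histone deacetylases, 1.5 mM), lithium chloride (LiCl, an inhibitor of GSK3, 8 mM), forskolin (FSK, which raises cAMP, 20 µM) and the siRNAs siFIR and siMxi1 (0.02 µM each). The vehicle group received sterile water with 0.1% DMSO for the same 4 days. An adenovirus carrying Atoh1 (ad.Atoh1), a bHLH transcription factor needed for hair cells to form, was then given to both groups for 2 weeks, so no group without it was available and vector Atoh1 could not be told from the cells' own. Each group pooled 5 cultures into 1 droplet library, so there is no replicate check, no p-value was computed, and every interval below is a 95% interval of counting error within these 2 libraries.

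After filtering, 1329 cocktail and 1582 vehicle cells remained, with median depths of 10391 and 12267 unique molecular identifiers (UMIs, 1 per captured RNA molecule). No barcode was shared between the libraries, and an Epcam UMI, a marker of epithelium, was found in 51.8% and 48.0% of cells. Clustering without Gal, Cck and Npy gave clusters that could be named from markers as hair cell-, supporting cell-, epithelium-, interdental or inner sulcus-, fibroblast-, glia-, neuron-, endothelium-, pericyte-, osteoblast- and macrophage-like. The clusters with the most Gal and Cck stayed unnamed and are called by number. Levels are given in CPM, the gene's UMIs as a share of all UMIs of the summed cells, where 1000 CPM is 0.1%. A cell is called high for a gene at 3 or more UMIs and at least 1000 CPM, and deep at 5000 or more UMIs.

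By GENCODE M21 on GRCm38, Gal lies on the minus strand of chromosome 19 from 3409915 to 3414544, Cck on the minus strand of chromosome 9 from 121489824 to 121495694, and Npy on the plus strand of chromosome 6 from 49822710 to 49829507. All 3 are protein-coding, with up to 6, 4 and 4 exons in a transcript, and no annotated gene overlaps any of them on either strand. The 250 bases before each annotated start are shown because both groups carried Atoh1, a factor that binds E-boxes, and because forskolin acts through cAMP, whose response element is also found by its letters. The sequences come from the RefSeq table for GRCm38.p6, read 5′ to 3′ on the gene's strand, with matches to the motifs in capitals.
Gal, chr19:3414545-3414794, minus strand: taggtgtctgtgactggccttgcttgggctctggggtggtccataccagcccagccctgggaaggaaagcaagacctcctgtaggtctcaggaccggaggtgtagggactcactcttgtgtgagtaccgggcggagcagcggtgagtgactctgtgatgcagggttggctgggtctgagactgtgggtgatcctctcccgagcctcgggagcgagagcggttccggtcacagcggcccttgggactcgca
Cck, chr9:121495695-121495944, minus strand: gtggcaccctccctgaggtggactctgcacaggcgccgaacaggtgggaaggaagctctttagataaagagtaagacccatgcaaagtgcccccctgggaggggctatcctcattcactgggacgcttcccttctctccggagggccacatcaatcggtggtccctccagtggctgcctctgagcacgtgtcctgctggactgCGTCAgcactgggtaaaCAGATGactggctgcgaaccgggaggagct
Npy, chr6:49822460-49822709, plus strand: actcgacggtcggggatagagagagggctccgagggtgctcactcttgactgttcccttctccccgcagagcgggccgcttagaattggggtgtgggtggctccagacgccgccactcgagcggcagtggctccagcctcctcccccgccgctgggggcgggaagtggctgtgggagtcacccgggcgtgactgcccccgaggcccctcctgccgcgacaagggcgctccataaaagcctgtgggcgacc
The E-box forms CAGCTG and CAGATG, the full cAMP element TGACGTCA and its short form CGTCA were searched on both strands; the short form is contained in the full element. Cck held CAGATG at 30 to 25 bases before the start and CGTCA at 47 to 43 bases before it. Gal and Npy held none of the 4 in this window. Among 32851 promoter windows of the same length, 25.5% held CAGCTG or CAGATG, 17.8% held CGTCA and 1.55% held TGACGTCA. Matches are a description of letters only.

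Gal had the highest level of the 3 genes in both libraries and was higher under cocktail. It had 95617 UMIs and 4896 CPM (4865 to 4927) in the cocktail library and 66349 UMIs and 2888 CPM (2866 to 2910) in the vehicle library. The ratio on the log2 scale was 0.76 (0.75 to 0.78). Cells high for Gal were 385 of 1329 (29.0%, 26.5 to 31.5) under cocktail and 327 of 1582 (20.7%, 18.7 to 22.8) under vehicle, 8.30 percentage points more (5.15 to 11.5). Within high cells the level differed less than in the whole library, at 15945 CPM under cocktail and 12836 CPM under vehicle, a log2 ratio of 0.31 (0.30 to 0.33). For comparison, 7.8% of 17259 genes with at least 20 UMIs were 1.5-fold or more higher under cocktail and 10.6% were 1.5-fold or more lower, with a median log2 ratio over all of them of -0.03; the choice of Gal for its level means that nothing is read from its place among them.

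Cck hardly differed between the whole libraries, yet the share of Cck-high cells did. Its level was 1242 CPM (1226 to 1258; 24255 UMIs) under cocktail and 1127 CPM (1113 to 1140; 25884 UMIs) under vehicle, a log2 ratio of 0.14 (0.12 to 0.17). High cells numbered 293 (22.0%) under cocktail and 283 (17.9%) under vehicle, a difference of 4.16 points (1.25 to 7.09). In deep cells alone the difference was 1.32 points, with an interval from -2.26 to 4.97 that includes 0. The level within high cells was 5087 CPM under cocktail and 5101 CPM under vehicle, with a log2 ratio of -0.00 (-0.03 to 0.02). As a mean of per-cell CPM, which weights shallow cells equally with deep ones, the log2 ratio was 0.43, and without the 10 highest cells of each library it was 0.03.

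Npy went the other way, with 114 CPM (109 to 118; 2218 UMIs) under cocktail and 258 CPM (251 to 264; 5923 UMIs) under vehicle. Its log2 ratio was -1.18 (-1.25 to -1.11), or -0.59 as a mean of per-cell CPM. Npy-high cells were rare in both libraries, 24 (1.81%, 1.16 to 2.68) under cocktail and 50 (3.16%, 2.35 to 4.15) under vehicle, a difference of -1.35 points (-2.50 to -0.205). The interval included 0 in deep cells alone (-1.54 points, -3.02 to 0.023) and after thinning to 5000 UMIs (-1.38 points, -2.91 to 0.226). Within high cells the level was 4152 CPM under cocktail and 5227 CPM under vehicle. A few cells decide the library value: 6 cocktail and 12 vehicle cells held 50% of all Npy UMIs, and without the 10 highest cells of each library the log2 ratio was -2.03. Leaving out those 10 cells took away unequal parts, 70.4% of the Npy UMIs under cocktail and 46.5% under vehicle.

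All 3 genes were carried by a minority of cells at very high levels. For Gal, 38 cocktail and 37 vehicle cells held 50% of its UMIs, and high cells held 98.8% and 98.5% of them. In the median Gal-high cell the single gene took 1.18% of all UMIs under cocktail and 0.926% under vehicle, and it took 30.9% and 39.0% in the cells where its share was greatest, both in cluster 14. The cocktail cell with the most Gal UMIs, in cluster 14, held 3480 Gal, 264 Cck and 175 Npy UMIs among 27646. The vehicle cell with the most, in cluster 13, held 2390 Gal UMIs, 1 Cck UMI and no Npy among 32573. Cck took at most 4.04% and 4.39% of a cell's UMIs, and Npy at most 2.42% and 1.85%. Cells within 2-fold of the 1000 CPM line numbered 119 and 94 for Gal, 91 and 66 for Cck, and 18 and 29 for Npy, so the high class is a range and not a cell type.

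**Figure D1:**
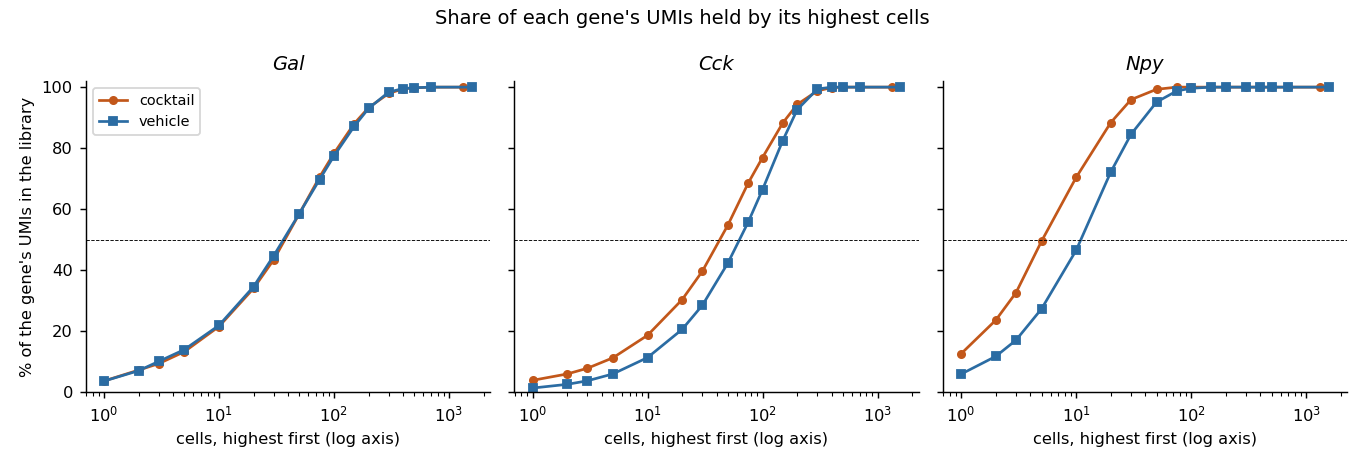
Percent of each gene's UMIs in a library (y axis) held by its highest cells (x axis, number of cells on a log scale), cocktail as circles and vehicle as squares, with a dashed line at 50%. The Gal curves of both libraries lie on each other, while Npy reaches 50% within 6 cocktail and 12 vehicle cells.

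Clusters 0, 1, 13 and 14 held 93.7% of the Gal UMIs of the cocktail library and 87.2% of those of the vehicle library. Gal was highest in cluster 14, whose leading genes include Spink4 and Cox8b, with 52352 CPM under cocktail (36 cells) and 39179 CPM under vehicle (34 cells). There, each of the 70 cells was high for Gal. Cluster 13, led by Rorb and Otof and unnamed because genes of another cell type led it, had 23888 and 19569 CPM. Cluster 0, whose cells were shallow (median 1311 and 2490.5 UMIs), had 15762 and 16891 CPM. Cluster 1, led by Sntg1 and Krt23 and with Epcam UMIs in 94.0% and 95.4% of its cells, had 9580 and 6796 CPM. Cluster 3 lay far lower, at 825 and 773 CPM, and the fibroblast-like cluster 2 at 171 and 55.7 CPM. Cluster 8 had 222 CPM under cocktail and 1224 CPM under vehicle, of which 72.0% lay in 1 cell.

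Together these 4 clusters, picked after their levels were seen, made up 470 of 1329 cocktail cells (35.4%) and 331 of 1582 vehicle cells (20.9%), 14.4 points more under cocktail (11.2 to 17.7). The difference was not spread evenly over them. The shallow cluster 0 had 221 cocktail and 124 vehicle cells and cluster 1 had 183 and 130. Cluster 13 had 30 and 43, and cluster 14 had 36 and 34. Within the 4 clusters together the Gal level was 14170 CPM under cocktail and 12587 CPM under vehicle, a log2 ratio of 0.17 (0.16 to 0.19) against 0.76 for whole libraries. The Cck level within them was 3066 and 2999 CPM. Npy stayed lower under cocktail within them, at 174 against 482 CPM, a log2 ratio of -1.47 (-1.58 to -1.37).

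**Figure D2:**
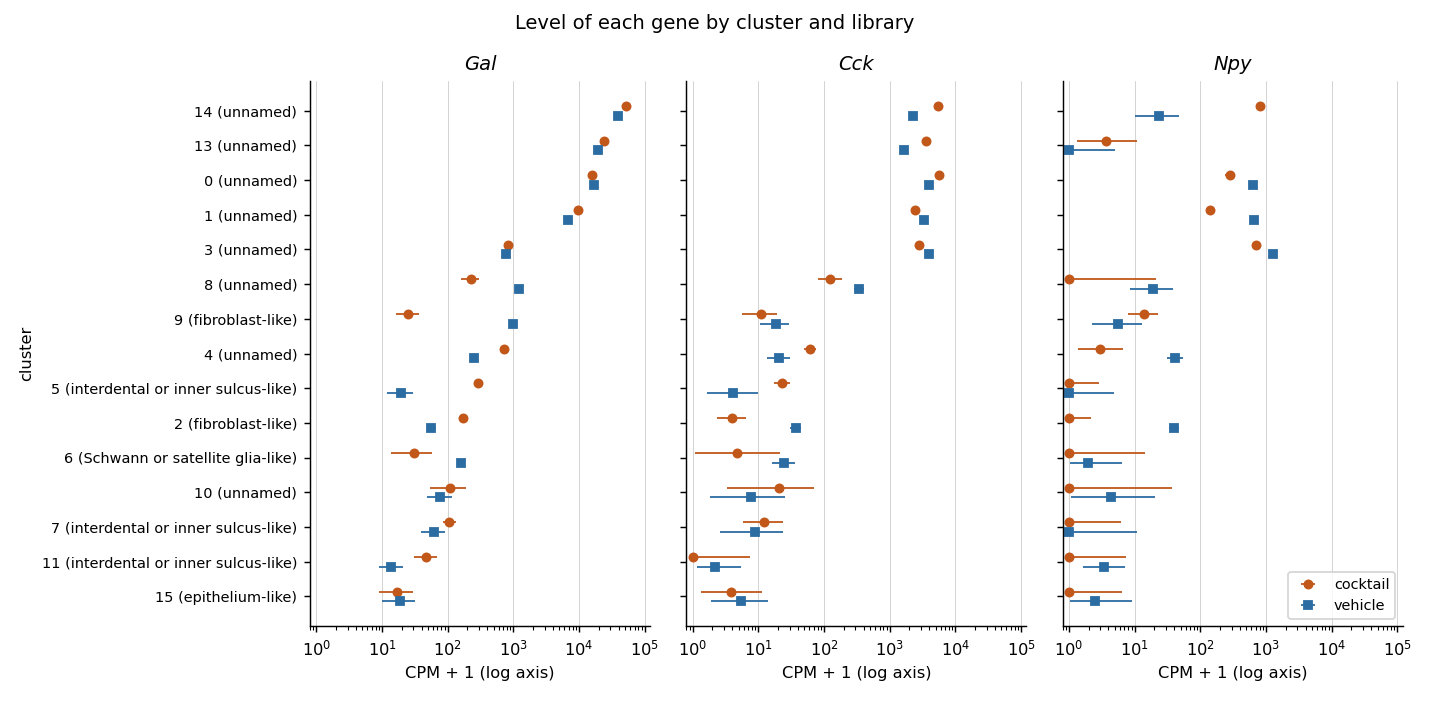
CPM + 1 (x axis, log scale) of Gal, Cck and Npy in each cluster with at least 20 cells in both libraries (y axis, ordered by Gal), cocktail as circles and vehicle as squares, with 95% Poisson intervals. Clusters 14, 13, 0 and 1 lead for Gal, while cluster 3 lies far below them for Gal but among them for Cck and at the top for Npy under vehicle.

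Cck was spread over the same 4 clusters and, in addition, cluster 3. Its levels were 5690 and 4010 CPM in cluster 0, 5472 and 2296 CPM in cluster 14, 3541 and 1635 CPM in cluster 13, and 2403 and 3327 CPM in cluster 1, each cocktail then vehicle. Cluster 3, led by Opcml, Mfap4 and Mymk, had 2751 CPM under cocktail and 3906 CPM under vehicle, and it held 17.6% and 39.1% of all Cck UMIs. The sign of the Cck difference was not the same in every cluster, and this was not tested. Cck was higher under cocktail in clusters 0, 13 and 14 (log2 ratios of 0.51, 1.12 and 1.25) and lower in clusters 1 and 3 (-0.47 and -0.51). Cluster 3 was also the smaller under cocktail, with 59 cells (4.44%) against 122 (7.71%), and without it the log2 ratio of whole-library Cck was 0.52 in place of 0.14. A glia-like cluster, 17, had 1703 CPM of Cck over 51 vehicle cells, but only 2 cocktail cells fell in it.

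Npy was carried above all by cluster 3, with 691 CPM under cocktail and 1256 CPM under vehicle, which made 48.4% and 54.9% of all Npy UMIs. Clusters 0 and 1 followed under vehicle at 630 and 658 CPM, with 278 and 140 CPM under cocktail. Cluster 13, second for Gal, had almost no Npy: 2 UMIs in 30 cocktail cells and none in 43 vehicle cells. In cluster 14 the cocktail value of 804 CPM, above that of cluster 3, rested on few cells, since 175 of its 264 UMIs came from 1 cell and 2 of 36 cells were high. The vehicle value there was 22.8 CPM. Of the 24 Npy-high cocktail cells, 9 were in cluster 0, 8 in cluster 3, 5 in cluster 1 and 2 in cluster 14. Of the 50 Npy-high vehicle cells, 23 were in cluster 3, 12 in cluster 0 and 9 in cluster 1.

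Hair cell-like cells, cluster 18, expressed the markers Pou4f3, Myo7a, Otof and Espn and are the cells that Atoh1 normally specifies. Of 9 such cells under cocktail 5 were high for Gal (5328 CPM), and 9 of 37 under vehicle (1117 CPM). High cells for Cck were 2 and 1, and no Npy UMI was counted in them, which allows a share of cells with an Npy UMI of up to 33.6% and 9.49%.

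Gal and Cck were often high in the same cells. Of Gal-high cells, 236 of 385 (61.3%, 56.2 to 66.2) were also Cck-high under cocktail, and 192 of 327 (58.7%, 53.2 to 64.1) under vehicle. With high set at 3000 CPM the share was 47.8% in both. Among cells not high for Gal, 6.04% and 7.25% were Cck-high. The reverse share was larger: 80.5% (75.5 to 84.9) of Cck-high cells under cocktail were Gal-high, and 67.8% (62.1 to 73.3) under vehicle. That reverse share differed little between libraries in deep Epcam-positive cells. Among deep cells with an Epcam UMI, 118 of 123 Cck-high cocktail cells (95.9%) and 116 of 122 vehicle cells (95.1%) were Gal-high. Among deep cells with no Epcam UMI, it was 23 of 52 (44.2%) and 31 of 108 (28.7%). Such cells were 52 of 175 deep Cck-high cells under cocktail and 108 of 230 under vehicle. In cluster 3, which held most of them, 23.7% of 38 and 27.1% of 85 Cck-high cells were Gal-high. The part of this make-up in the library difference was not tested.

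Across deep Epcam-positive cells the Pearson correlation of Gal and Cck on log2(CPM + 100) was 0.74 under cocktail (493 cells) and 0.73 under vehicle (572 cells). Within deep cells of cluster 1 under cocktail it was 0.55 (172 cells). The cells of a library share depth and free RNA, so these values are a description. Gal and Npy had 0.16 under cocktail and 0.17 under vehicle, while Cck and Npy had 0.27 and 0.30. All 24 Npy-high cocktail cells were Cck-high, as were 41 of 50 (82.0%, 68.6 to 91.4) under vehicle. Gal was high in 16 of 24 (66.7%) and 26 of 50 (52.0%) of them.

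**Figure D3:**
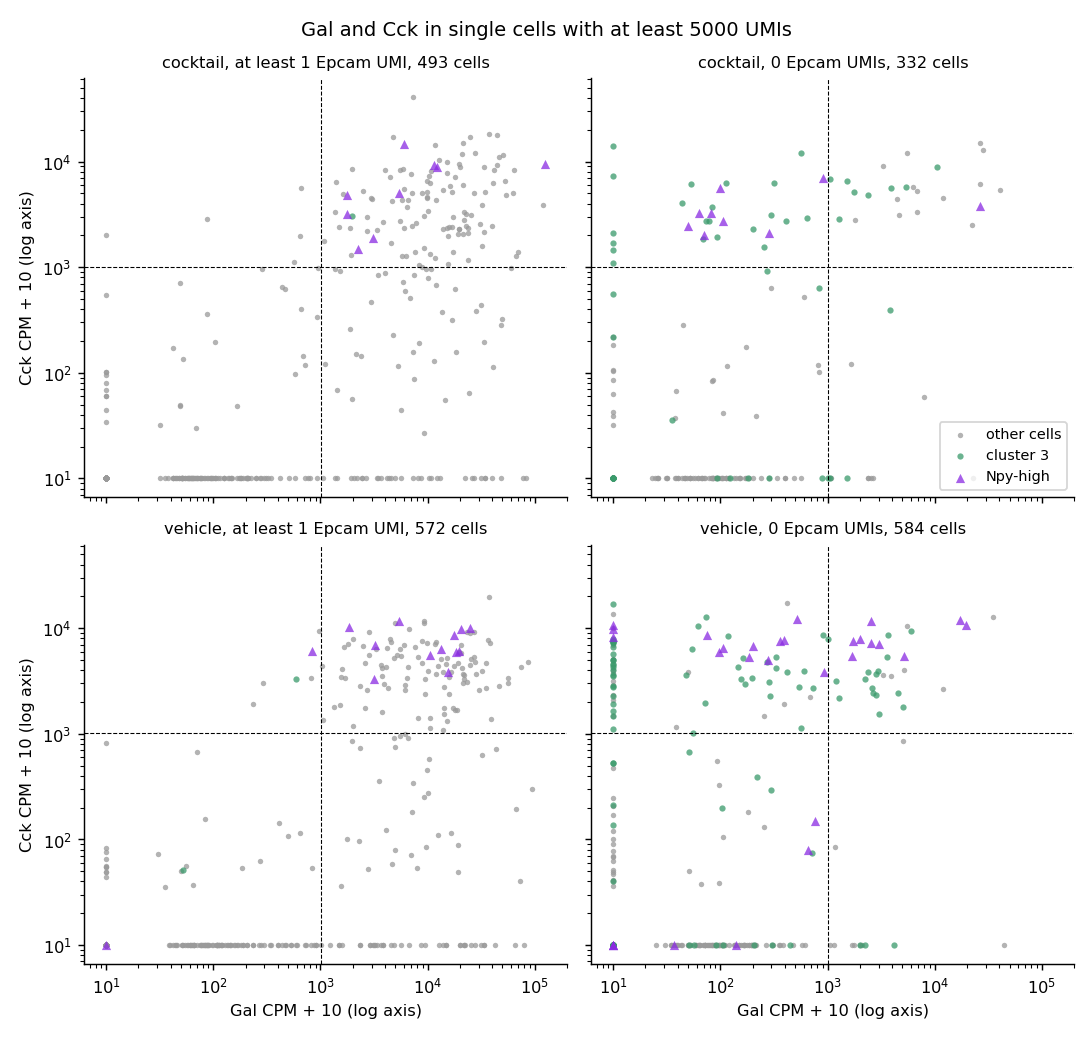
Gal (x axis) against Cck (y axis) as CPM + 10 on log scales in each deep cell, by library (rows) and by Epcam UMIs (columns), with cluster 3 in green, Npy-high cells as purple triangles and dashed lines at 1000 CPM. Epcam-positive cells above the Cck line lie almost all right of the Gal line (118 of 123 and 116 of 122), while cells of cluster 3 without Epcam run high in Cck over the whole range of Gal.

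Cells with no Epcam UMI were used to gauge free RNA, the RNA of broken cells that enters every droplet. Of deep Epcam-zero cells, 146 of 332 (44.0%, 38.6 to 49.5; median depth 19347.5) had a Gal UMI under cocktail and 190 of 584 (32.5%, 28.7 to 36.5; median depth 16854.5) under vehicle. Deep Epcam-positive cells had one in 62.7% (median depth 20566) and 51.4% (17233.5). For Cck the Epcam-zero shares were 24.7% and 25.2% against 39.1% and 31.3% in Epcam-positive cells. For Npy the order was turned round, with 8.13% and 10.96% of Epcam-zero cells against 5.07% and 7.17% of Epcam-positive cells.

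Epcam-zero cells were not a uniform background. Of the deep Epcam-zero cells that were Cck-high, 37 of 52 under cocktail and 83 of 108 under vehicle belonged to cluster 3, and 18 more under vehicle to cluster 17. Of those that were Npy-high, 8 of 9 and 22 of 29 belonged to cluster 3. Cluster 3 had 1 Epcam UMI in 59 cocktail cells and 6 in 122 vehicle cells, at median depths of 26348 and 21043. In its deep Epcam-zero cells the summed Gal to Cck ratio of UMIs was 0.29 under cocktail and 0.20 under vehicle, against 3.94 and 2.56 over all cells of the libraries. The ratio also varied between other sets. It was 27.1 and 8.60 in deep fibroblast-like cells, 13.9 and 9 in deep interdental- or inner-sulcus-like cells, and 2.73 and 1.80 in deep Epcam-zero cells high for none. Several of these ratios rest on few counts or cells. The fibroblast-like sets held 20 and 119 Cck UMIs, with 805 of 1023 vehicle Gal UMIs in 1 cell. The interdental- or inner-sulcus-like sets held 45 and 5 Cck UMIs, with 379 of 627 cocktail Gal UMIs in 1 cell. The part of free RNA in these values was not tested.

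Without clusters 3 and 17, a choice made after the data were seen, 37.2% and 24.4% of deep Epcam-zero cells had a Gal UMI, 14.2% and 7.11% a Cck UMI, and 2.92% and 3.79% an Npy UMI. Deep fibroblast-like cells (177 and 181; median depths 21810 and 17809) gave 33.3% and 27.1% for Gal, 6.21% and 6.08% for Cck, and 2.26% and 3.87% for Npy. Deep interdental- or inner-sulcus-like cells (160 and 170) gave 26.9% and 17.1% for Gal, 5.00% and 2.94% for Cck, and 0% and 1.76% for Npy. A Gal UMI was thus found in 17.1% to 33.3% of cells of types with few Gal-high cells (4 of 177 and 3 of 181 fibroblast-like). Whether the Gal UMIs of such cells came from free RNA was not tested. No empty droplets were used, and 1 vehicle fibroblast-like cell held 805 Gal UMIs. In each of these sets the share with a Gal UMI was higher in the cocktail library, as was the library's Gal level. Cocktail cells were also the deeper in each. Median depths were 17817 against 15300 outside clusters 3 and 17, and 18780.5 against 13892.5 in interdental- or inner-sulcus-like cells. The Gal level of deep fibroblast-like cells was lower under cocktail, at 124 against 271 CPM, with 805 of 1023 vehicle UMIs in 1 cell. The parts of free RNA and depth in the differences in share were not tested. Among deep Epcam-zero cells high for none of the 3 genes, mean Gal was 1.47 UMIs a cell under cocktail and 0.525 under vehicle. Single cells among them held up to 53 and 21 Gal UMIs. Over all deep Epcam-zero cells, 35 of 332 and 43 of 584 were Gal-high and the Gal level was 758 and 350 CPM.

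**Figure D4:**
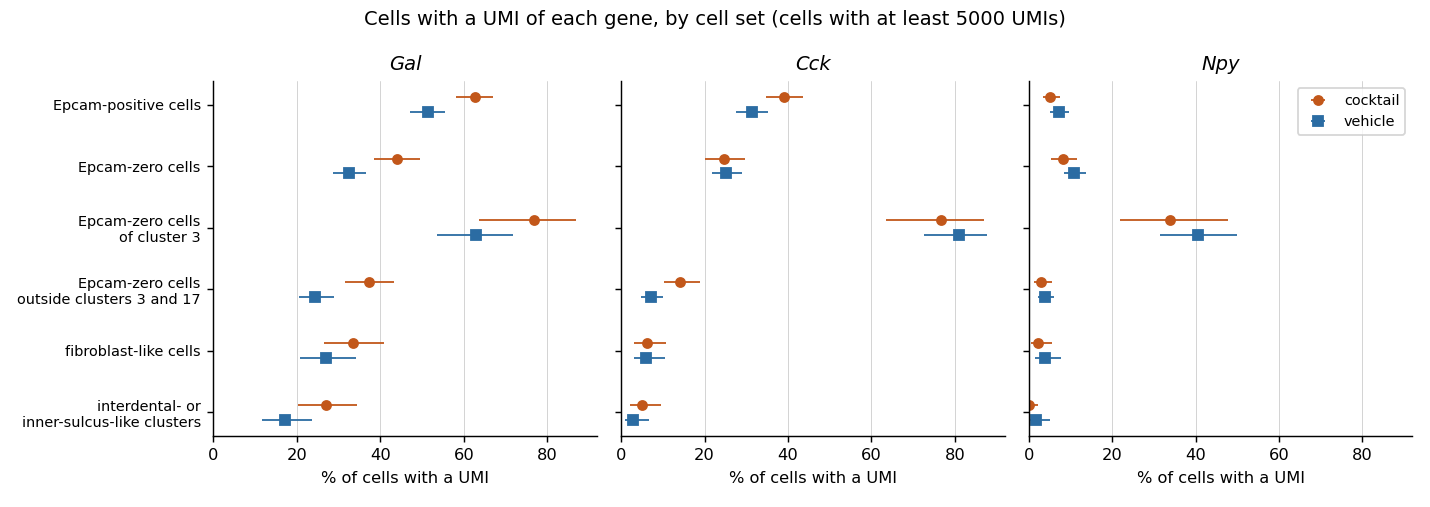
Percent of deep cells with at least 1 UMI (x axis) of Gal, Cck and Npy in 6 sets of cells (y axis), cocktail as circles and vehicle as squares, with 95% Clopper-Pearson intervals. Cluster 3 stands above every other set for Cck and Npy, while Gal UMIs reach 17.1% to 37.2% of cells in the lowest 3 sets.

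Atoh1 had 1446 UMIs (74.0 CPM) under cocktail and 1097 UMIs (47.7 CPM) under vehicle, in 21.6% and 20.1% of cells. Gal- and Cck-high cells more often carried some Atoh1. Of deep Gal-high cells, 122 of 228 (53.5%, 46.8 to 60.1) had an Atoh1 UMI under cocktail and 119 of 230 (51.7%, 45.1 to 58.4) under vehicle, against 22.1% and 18.1% of deep cells not high for Gal. Median depths were 23860 and 20670 UMIs in the high cells and 19191 and 16001 in the others, so depth moved with the result. For Cck-high cells the shares were 54.9% and 53.0%, against 24.3% and 17.8%.

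Over all deep cells, Gal was highest at middle Atoh1 counts. In deep cocktail cells with 0, 1, 2 to 4, 5 to 19 and 20 or more Atoh1 UMIs, the Gal level was 3163, 4961, 9682, 7574 and 2958 CPM. In deep vehicle cells it was 1716, 5574, 6151, 4350 and 37.6 CPM. Gal-high cells made up 56.8% (46.3 to 67.0) of cocktail cells with 2 to 4 Atoh1 UMIs but 3 of 14 with 20 or more. Under vehicle the values were 50.5% (40.1 to 60.9) and 0 of 6. Of these cells with the most Atoh1, 12 of 14 and 6 of 6 were in cluster 4, which had 530 and 442 CPM of Atoh1 but only 713 and 252 CPM of Gal and 60.2 and 19.7 CPM of Cck. A single cell held 72.4% of the Gal UMIs of cluster 4 under cocktail. Outside cluster 4 no such fall was seen in the Gal-high share. It was 18.7%, 51.2% and 65.1% of cocktail cells with 0, 1 and 2 to 4 Atoh1 UMIs, 79.3% of 29 with 5 to 19 and 2 of 2 with 20 or more. Under vehicle it was 12.9%, 40.6% and 61.0%, then 65.4% of 26 with 5 to 19. Median depths were higher in the classes with more Atoh1, from 18275 to 32806 UMIs at 5 to 19 under cocktail and from 15142.5 to 26770.5 under vehicle.

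Because deeper cells show more Atoh1 UMIs, every deep cell was also thinned to 5000 UMIs, which leaves out 504 cocktail and 426 vehicle cells. In 1 random draw, Gal was compared between cells with 2 or more Atoh1 UMIs and cells with none. The log2 ratio went from 1.41 to -0.06 (-0.15 to 0.034) under cocktail and from 1.64 to 0.30 under vehicle. A second draw, used for the counts that follow, gave 3504 against 4179 CPM under cocktail and 2086 against 2513 CPM under vehicle. The sign under vehicle thus differed between the draws. In the second draw only 56 and 49 cells kept 2 or more Atoh1 UMIs, and 38 and 30 of those were in cluster 4. With 1 Atoh1 UMI, 54.1% (40.8 to 66.9) and 40.7% (30.2 to 51.8) of thinned cells were Gal-high, against 25.6% (22.4 to 28.9) and 17.8% (15.5 to 20.3) with none. Outside cluster 4, thinned cells with 2 or more Atoh1 UMIs were Gal-high in 13 of 18 and 14 of 19, against 26.2% of 687 and 18.0% of 1000 with none. The Gal level in those cells was 10378 against 4271 CPM under cocktail and 5042 against 2561 CPM under vehicle.

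Within bands of depth and outside cluster 4, Gal-high shares differed by Atoh1 without thinning, although cells with Atoh1 were the deeper within a band (medians of 24631.5 against 21457 and 23352 against 21124.5 in the middle one). Among cells of 15000 to under 30000 UMIs, 64.3% of 56 cocktail cells with 2 or more Atoh1 UMIs were Gal-high against 17.2% of 244 with none. Under vehicle it was 61.2% of 67 against 16.4% of 324. Cck-high shares in the same cells were 39.3% against 15.6% under cocktail and 64.2% against 18.2% under vehicle. Within cluster 1, Gal-high cells made up 81.0% (69.1 to 89.8) of deep cells with 2 or more Atoh1 UMIs and 53.7% (41.1 to 66.0) with none under cocktail. Under vehicle the values were 94.9% (82.7 to 99.4) and 67.3% (53.3 to 79.3), with 57.6% (39.2 to 74.5) at 1 Atoh1 UMI. Median depths there were 27416 against 23624 UMIs under cocktail and 25456 against 20004 under vehicle. The Pearson correlation of Gal and Atoh1 on log2(CPM + 100) was 0.25 and 0.24 in deep cells of cluster 1. In cluster 13 it was -0.06 (25 cells) and 0.32 (40 cells), and in cluster 14 -0.54 (20 cocktail cells). Over deep Epcam-positive cells it was 0.23 and 0.28, and over deep cells with Atoh1 -0.28 and -0.20. In cluster 3 the Cck-high share was 66.7% with 2 or more Atoh1 UMIs and 66.7% with none under cocktail, and 64.7% and 71.4% under vehicle.

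For Npy the counts were small. Of deep cells with 2 or more Atoh1 UMIs, 6 of 166 (3.61%) under cocktail and 12 of 149 (8.05%) under vehicle were Npy-high, against 9 of 571 (1.58%) and 17 of 869 (1.96%) with none. After thinning, 2 of 56 and 1 of 49 were Npy-high, against 17 of 708 (2.40%) and 33 of 1021 (3.23%) with none. With 1 Atoh1 UMI it was 1 of 61 under cocktail and 12 of 86 under vehicle.

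**Figure D5:**
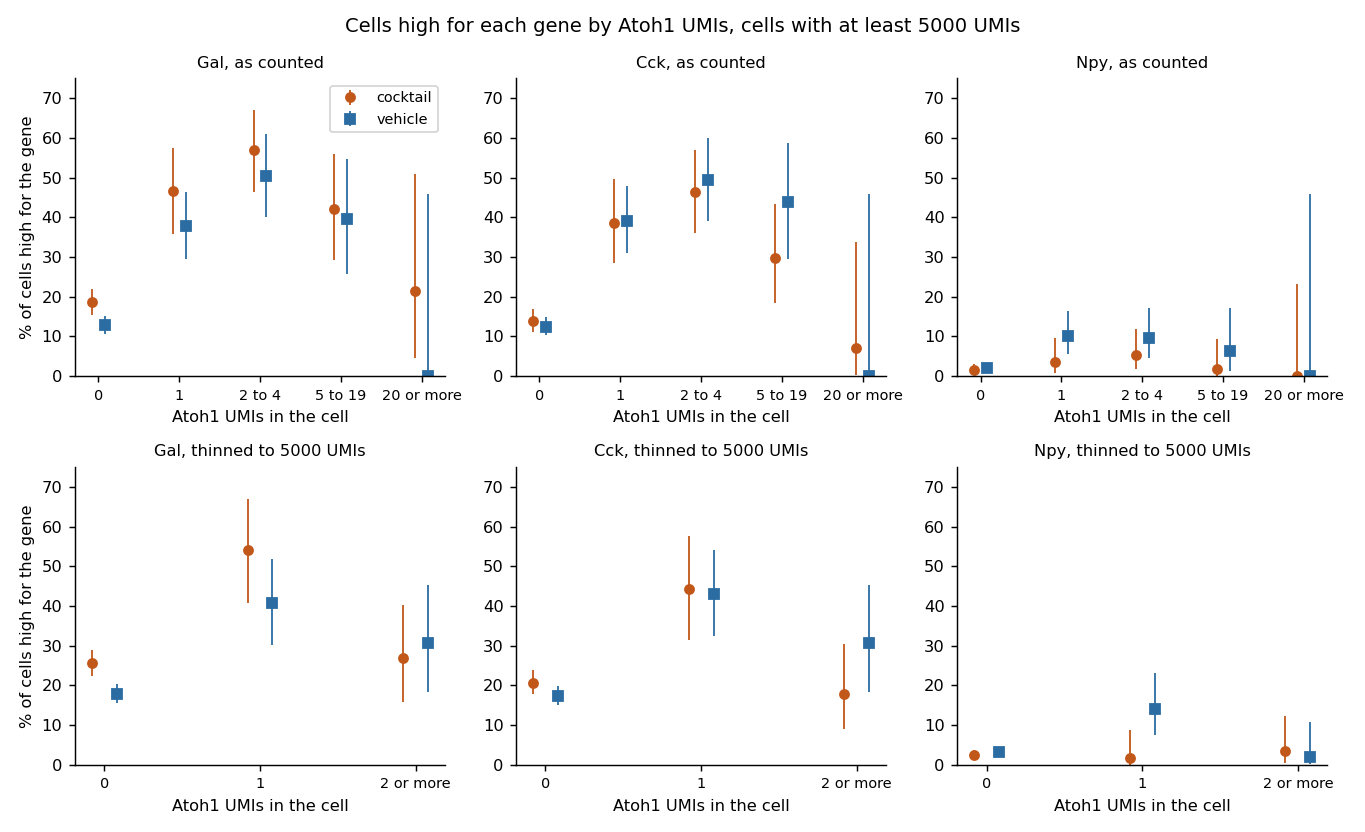
Percent of deep cells high for Gal, Cck and Npy (y axis) by the number of Atoh1 UMIs in the cell (x axis), as counted (upper row) and with every cell thinned to 5000 UMIs (lower row), cocktail as circles and vehicle as squares, with 95% Clopper-Pearson intervals. As counted, the Gal and Cck shares are highest at 2 to 4 Atoh1 UMIs and lower at both ends, and cells with 20 or more Atoh1 UMIs number 14 and 6.

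The genes around the peptides were read from lists of known members, compared between the libraries and between the 428 cells high for both Gal and Cck and 929 Epcam-positive cells high for neither. In that second comparison 24.9% of 15334 genes were at least 1.5-fold higher and 24.8% at least 1.5-fold lower, and since the groups were drawn by Gal and Cck, it is given as a description. Only the 929 cells were required to have an Epcam UMI. Among the 428 cells, 71.4% of 220 cocktail and 72.5% of 167 vehicle cells not high for Npy had one. Of those also high for Npy, 75% of 16 and 52% of 25 had one. Of the 10 receptors of the 3 peptides, Galr2 alone passed 20 UMIs. It had 91 UMIs under cocktail and 185 under vehicle, with 20.2 CPM in the Gal- and Cck-high cells and 0.838 CPM in the other Epcam-positive cells. The remaining receptors were close to absent: Galr1 had 11 and 6 UMIs, Cckbr 3 and 14, Npy4r 7 and 8, Npy1r 8 and 2, Galr3 4 and 2, Cckar 2 and 2 and Npy2r 2 and 1, while Npy5r and Npy6r had none in either library.

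Among 25 other measured neuropeptide precursors, 2 were at least 1.5-fold higher and 5 at least 1.5-fold lower under cocktail, with a median log2 ratio of 0.03. Over all genes 7.8% were higher and 10.6% lower by that measure. The 4 with the most UMIs were Rln1 (relaxin; 53.8 and 44.5 CPM), Adm (adrenomedullin; 46.3 and 45.5 CPM), Sct (secretin; 19.4 and 44.4 CPM) and Nppc (C-type natriuretic peptide; 29.1 and 34.7 CPM). In the Gal- and Cck-high cells 11 of 19 precursors were higher and 7 lower, beside 24.9% and 24.8% of all genes. Rln1 stood at 165 CPM in the Gal- and Cck-high cells and 16.1 CPM in other Epcam-positive cells.

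Of 35 genes of peptide processing and granules, 1 was higher and 9 lower by 1.5-fold under cocktail, beside 7.8% and 10.6% of all genes. In the Gal- and Cck-high cells 15 of 32 were higher and 6 lower, beside 24.9% and 24.8% of all genes. The 4 genes of the list with the most UMIs follow. Cpe, the carboxypeptidase that trims peptide ends, had 100 CPM in Gal- and Cck-high cells and 233 CPM in other Epcam-positive cells, and Pam, which amidates them, had 32.2 and 53.3 CPM. Cpd, another carboxypeptidase, had 66.4 and 96.3 CPM. Cadps2, a factor of granule release, was the higher there, at 195 and 113 CPM. Ptprn2, a granule membrane protein named here after its values were seen, had 201 and 10.8 CPM.

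Of 9 peptidases that degrade peptides, 1 was higher and 3 lower under cocktail, beside 7.8% and 10.6% of all genes. The highest in RNA was the lysosomal Ctsl (1012 and 802 CPM). The one at least 1.5-fold higher was Mme (neprilysin; 356 and 119 CPM), for which 5020 of the 6944 cocktail UMIs lay in 1 cell. Tpp2 had 55.7 and 56.5 CPM and Ctsh 41.0 and 43.4 CPM. In the Gal- and Cck-high cells 1 of 8 peptidases was higher and 6 lower, beside 24.9% and 24.8% of all genes. Of 13 neuroendocrine transcription factors, none was higher and 1 was lower under cocktail, beside 7.8% and 10.6% of all genes. In the Gal- and Cck-high cells 4 of 9 were higher and 2 lower, beside 24.9% and 24.8% of all genes. Hes6, a target of proneural factors, had 465 CPM in the Gal- and Cck-high cells and 176 CPM in other Epcam-positive cells. Hes1 had 251 and 234 CPM in the same cells, Rest 37.0 and 40.4 CPM, and Isl1 26.4 and 43.8 CPM.

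Merkel cells are skin epithelial cells that depend on Atoh1 and hold peptides, and their genes were read for that reason. Of 18 measured, 3 were higher and 7 lower under cocktail, beside 7.8% and 10.6% of all genes. In the Gal- and Cck-high cells 6 were higher and 9 lower, beside 24.9% and 24.8% of all genes. Krt18, a keratin of simple epithelia, had 53.7 CPM in the Gal- and Cck-high cells against 738 CPM in other Epcam-positive cells, and Krt8 243 against 481 CPM. Cdh1 (E-cadherin) had 110 against 226 CPM and Tubb3 (a neuronal tubulin) 79.1 against 26.1 CPM. Only the other Epcam-positive cells were required to have an Epcam UMI, and the part of that choice in these values was not tested. Of 28 hair cell genes, 1 was higher (Atoh1 itself) and 17 lower under cocktail, beside 7.8% and 10.6% of all genes. The hair cell-like cluster had 9 cocktail and 37 vehicle cells, and its part in that count was not tested. In the second comparison 6 of 26 were higher and 14 lower in the Gal- and Cck-high cells, beside 24.9% and 24.8% of all genes. Pvalb, a calcium buffer, had 727 CPM there against 193 CPM, while Myo6 (125 and 107 CPM) and Cib2 (94.2 and 92.7 CPM) lay close together. Espn, an actin bundler of hair bundles, had 32.7 CPM there against 113 CPM. Of 10 ligands and genes of pain and nerve injury, 2 were higher and 2 lower under cocktail, beside 7.8% and 10.6% of all genes. Atf3, an injury-response factor, had 202 and 203 CPM, Nrtn 76.5 and 56.8 CPM, Bdnf 14.8 and 18.4 CPM and Sprr1a 16.9 and 120 CPM. Sprr1a was a leading gene of the neuron-like cluster 22, which had 4 cocktail and 15 vehicle cells. The part of that cluster in the Sprr1a values was not tested.

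Genes with the most similar pattern were ranked by the Pearson correlation of log2(CPM + 10) over 37 points, each a cluster with at least 20 cells of a library. For Gal they were Pvalb (0.90), Cox8b (0.88), Cyp46a1 (0.87), Tesc (0.86) and Gfra4 (0.86). For Cck they were Ramp3 (0.95), Rtl8a (0.94), Spg21 (0.91), Tsn (0.91) and Hes6 (0.90). The Npy list was looser, with Ccdc155 (0.81), the galanin receptor Galr2 (0.77), Amigo2 (0.77), Sh3bgr (0.77) and Mtfr1l (0.75). Over the same points Gal and Cck had 0.88, Cck and Npy 0.72 and Gal and Npy 0.55. The points share libraries and depth, and clusters of both libraries enter as separate points.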

How the data were processed

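Single-cell 3' RNA libraries (10x kit v3.1, 150 bp paired reads) were made from 2 groups, 1 library each, after 0.25% trypsin for 15 min at 37 °C. The authors deposited UMI counts that were not normalized, written by Cell Ranger 5.0.0 per the file headers, and the submitters' processing notes name Cell Ranger 5.0, STAR, Seurat 3.2.2, mm10 and GRCm38. The files held 1403 and 1688 barcodes (about 1400 and 1700 cells stated) with 19625208 and 23108868 UMIs. A floor of 500 UMIs and 300 genes and a ceiling of 20% mitochondrial UMIs took out 74 and 104 barcodes. Scrublet (scanpy 1.11.5) called 0 and 2 doublets, too few to count as a working check, and these were removed. Free RNA was not subtracted. Clustering used 2000 variable genes without Gal, Cck and Npy, 30 components, 15 neighbours and Leiden resolution 1 (seed 0). Names required markers in 10% of cells at 2 times the level elsewhere.

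Shares carry Clopper-Pearson intervals, differences Newcombe intervals, levels Poisson intervals and ratios exact conditional intervals. They cover counting error only. A count of 0 was read against 3 counts, or 0.154 and 0.131 CPM per library. The code for ratios and their intervals was run on simulated Poisson counts. Those counts lack the gathering of UMIs in few cells, so the run checks the code and not the spread in these data. The 3 genes and all lists were chosen with earlier results of these data known. Named genes were the 3 genes and Atoh1, the 4 genes with the most UMIs besides them in each list, all receptors, and the 5 most alike genes per gene. Promoters came from RefSeq (GRCm38.p6).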

Additional observations from a re-analysis of the deposited data

Results flagged for a closer look

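Gal differed between the libraries in opposite directions in different clusters, and the difference between clusters was not tested. Its log2 ratio of cocktail over vehicle was -0.10 in cluster 0 and -2.46 in cluster 8, but 0.50 in cluster 1, 0.29 in cluster 13 and 0.42 in cluster 14. Without the top cell of each library the ratio in cluster 0 was -0.02. In cluster 8 a single vehicle cell held 72.0% of the Gal UMIs, and without the top cell of each library the ratio was -1.12. Cck likewise was higher under cocktail in cluster 0 (0.51), cluster 13 (1.12) and cluster 14 (1.25), and lower in cluster 1 (-0.47) and cluster 3 (-0.51). That difference was not tested either.

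Barcodes that the filter removed, with median mitochondrial shares of 79.4% and 85.1%, also held Gal and Cck. Gal had 2962 CPM in 74 removed cocktail barcodes and 1738 CPM in 104 removed vehicle barcodes. Cck had 255 and 219 CPM there, and Npy 1 UMI and 0 UMIs.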

How the results depend on the processing

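Of 132 recomputed values, 68 stayed within the counting interval of the reported value, 61 moved and 3 changed sign. The differences in the share of high cells moved under no alternative, although the interval included 0 for Cck in deep cells, at 3000 CPM and after thinning, and for Npy in deep cells and after thinning. For the library log2 ratios of Gal, Cck and Npy (0.76, 0.14 and -1.18), the mean of per-cell CPM gave 0.71, 0.43 and -0.59. Leaving out cluster 3 gave 0.73, 0.52 and -1.04, and leaving out the top 10 cells gave 0.78, 0.027 and -2.03; both were chosen after seeing the data. The stricter barcode filter gave 0.78 for Gal. Cells of at least 5000 UMIs gave 0.10 for Cck and -1.29 for Npy, and leaving out the top cell gave 0.11 and -1.29.

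For cells with 2 or more Atoh1 UMIs over cells with none, the log2 ratios, cocktail then vehicle, were 1.41 and 1.64 for Gal, 1.61 and 1.87 for Cck, and 2.37 and 1.84 for Npy. Thinning to 5000 UMIs gave, in 1 random draw, -0.057 (-0.15 to 0.034) and 0.30 for Gal and 0.43 and 0.40 for Cck. For Npy it gave -1.58 and -2.08. In that draw the sign changed for Gal under cocktail, with an interval that includes 0, and for Npy in both. In a second draw Npy under cocktail was 100 CPM with 2 or more Atoh1 UMIs and 85.6 CPM with none, so its sign did not change. Gal under vehicle was 2086 and 2513 CPM in that second draw, so its sign did change. The mean of per-cell CPM gave 1.05 and 1.28, 1.31 and 1.75, and 1.71 and 1.66. Leaving out cluster 4, chosen after seeing the data, gave 1.83 and 2.01, 2.00 and 2.25, and 2.77 and 2.23. At least 1 Atoh1 UMI gave 1.19 for Gal under cocktail, 1.45 and 1.75 for Cck, and 2.12 and 2.13 for Npy. Epcam-positive cells gave 1.24 and 1.52 for Gal, 2.15 for Cck under vehicle, and 1.80 and 2.95 for Npy. Without the top cell of each side, Gal gave 1.48 and 1.59 and Cck 1.57 under cocktail. The causes were not tested.

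Shares of deep Epcam-zero cells with a UMI were 44.0% and 32.5% for Gal, 24.7% and 25.2% for Cck, and 8.13% and 10.96% for Npy. In their place, deep fibroblast-like cells gave 33.3% and 27.1%, 6.21% and 6.08%, and 2.26% and 3.87%. Cells outside clusters 3 and 17 gave 37.2% and 24.4%, 14.2% and 7.11%, and 2.92% and 3.79%. Thinning gave 27.4% and 21.2% for Gal. With high set at 3000 CPM, 47.8% and 47.8% of Gal-high cells were Cck-high, and 73.4% and 57.6% of Cck-high cells were Gal-high; at 300 CPM the last share was 74.0% under vehicle. No paired analysis was possible because each group is 1 library, and for the same reason no replicate could be left out. Depth per cell limits what a single cell can show, and levels below 1 UMI in a cell were not detectable.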

Other observations

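Npy was also found in macrophage-like cells of 1 library. The 5 vehicle cells of this small cluster held 0, 4, 31, 35 and 73 Npy UMIs, with 3 Gal UMIs and no Cck UMI among them. The 7 cocktail cells held none, and 2 of those had 30854 and 39122 UMIs. The cells differed in the marker C1qa, with 244 and 160 UMIs in those 2 and 0 or 1 in each vehicle cell. Epithelium-like cluster 20 held Gal at 6571 CPM in 6 cocktail cells, of which 92.6% lay in 1 cell, and at 3012 CPM in 29 vehicle cells, of which 57.0% lay in 1 cell. It also had an Npy UMI in 10 of its 29 vehicle cells.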
